A study of Mus musculus with 8 samples.

Results

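The receptors described here are 9 genes through which leukocytes sense chemoattractants, namely Ccr1, Ccr2, Ccr3, Ccrl2, Cxcr4, Cx3cr1, Fpr1, Fpr2 and C5ar1. They were chosen by gene symbol, with earlier results of these data known. All 9 had a row in the deposited table of 55487 mouse genes. RNA was sequenced from J774A.1 cells, an established mouse macrophage line, after 24 h with LPS at 1 μg/mL (4 libraries) or with LPS at 1 μg/mL and UDCA at 1 mM (4 libraries). LPS, from the outer membrane of bacteria, activates macrophages through TLR4, and UDCA (ursodeoxycholic acid) is a bile acid. Both groups received LPS, and cells without LPS were not analysed here, so each comparison sets LPS with UDCA against LPS alone. The cells are 1 line in culture. The labels do not say whether the libraries of a group came from separate cultures, so the p-values measure the spread between these libraries, which may be technical.

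Chemokine receptors and their relatives are G protein-coupled receptors. Most of them signal through inhibitory G proteins to steer cells along a gradient of ligand, whereas Ccrl2 is an atypical member without this signal. In monocytes and macrophages, Ccr2 is known for bringing inflammatory monocytes from the bone marrow into blood and tissue, and a high level of Cx3cr1 marks patrolling monocytes and many resident macrophages. C5ar1, Fpr1 and Fpr2 detect a complement fragment and bacterial formyl peptides at sites of infection.

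With UDCA the receptors moved in opposite directions. Ccrl2 rose from 4.40 ± 0.489 to 20.6 ± 0.535 TPM and Ccr2 from 1.22 ± 0.235 to 6.30 ± 0.924 TPM (SD, n = 4). Ccr1 fell from 3.77 ± 0.259 to 0.375 ± 0.0597 TPM and Cx3cr1 from 3.85 ± 0.674 to 0.380 ± 0.0523 TPM. C5ar1 had the highest expression of the 9 receptors in both groups and did not pass the test. Ccr3, Cxcr4, Fpr1 and Fpr2 were at or near 0 in both groups. TPM scales the reads of a gene by its length and by the library, so levels of different genes can be set side by side.

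For each of the 11796 genes whose mean over the 8 libraries reached 1 TPM, the groups were compared on log2(TPM + 1) with limma, which fits linear models. Of the 9 receptors, 5 reached this mean, and Ccr1 and Cx3cr1 reached it only through the LPS libraries, in which they were high. A gene was called where it changed at least 2-fold on the scale of log2(TPM + 1) with an FDR (Benjamini-Hochberg) under 0.05. By this rule 17.1% of all genes tested were called (8.71% higher and 8.44% lower with UDCA). Of the 5 receptors tested, 2 were called higher and 2 lower. The groups did not overlap in these 4 receptors, nor in 66.8% of all genes tested. The FDR alone was passed by the same 4 receptors and by 72.5% of all genes tested.

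**Figure D1:**
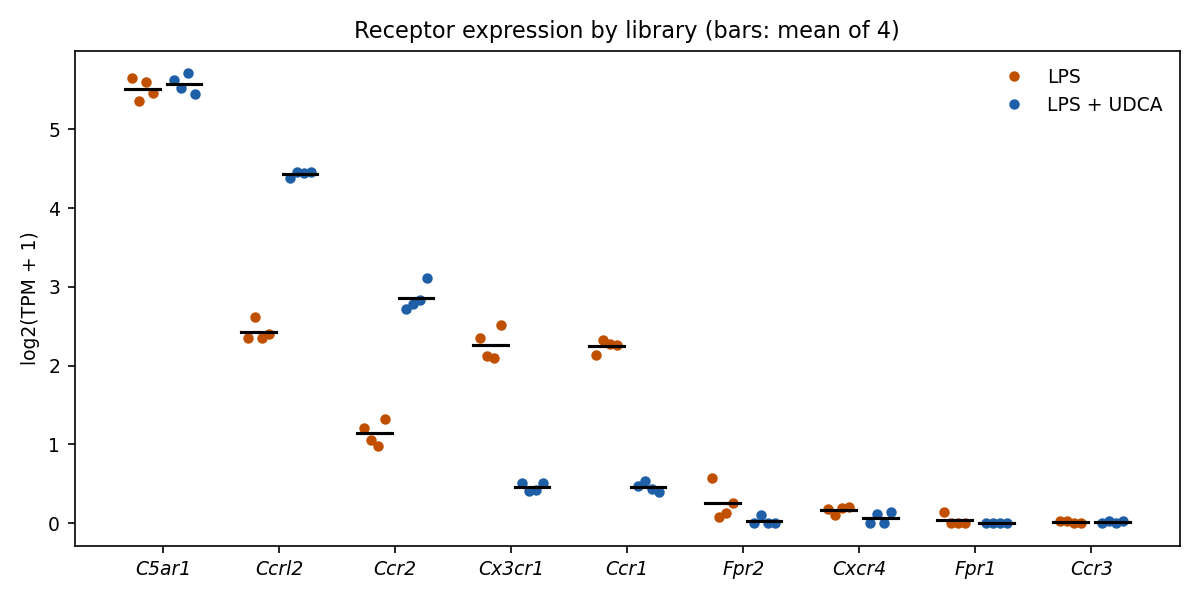
Expression of the 9 receptors as log2(TPM + 1) on the vertical axis, with a point for each of the 8 libraries and a bar at the mean of 4, in orange for LPS and blue for LPS + UDCA. The groups are apart for Ccrl2 and Ccr2, higher with UDCA, and for Cx3cr1 and Ccr1, lower with UDCA. C5ar1 overlaps, and the remaining 4 receptors lie near 0.

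Promoter sequence is shown for 3 of the receptors, 1 that fell, 1 that rose and 1 that did not pass the test. Each is the stretch of 250 bases before the RefSeq start of transcription on GRCm38.p6, 5′ to 3′ on the strand of the gene. The window of Ccr1 is chr9:123968693-123968942 (minus strand) and that of Ccrl2 is chr9:111057519-111057768 (minus strand). Ccrl2 had 3 such windows, of which 1 is shown. The window of C5ar1 is chr7:16259339-16259588 (minus strand), and another annotated transcript begins inside it. Capitals mark matches to any of 8 motifs on either strand.
Ccr1: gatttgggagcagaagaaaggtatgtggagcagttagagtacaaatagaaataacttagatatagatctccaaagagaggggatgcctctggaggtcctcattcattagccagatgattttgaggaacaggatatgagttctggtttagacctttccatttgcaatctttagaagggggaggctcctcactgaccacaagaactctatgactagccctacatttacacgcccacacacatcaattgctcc
Ccrl2: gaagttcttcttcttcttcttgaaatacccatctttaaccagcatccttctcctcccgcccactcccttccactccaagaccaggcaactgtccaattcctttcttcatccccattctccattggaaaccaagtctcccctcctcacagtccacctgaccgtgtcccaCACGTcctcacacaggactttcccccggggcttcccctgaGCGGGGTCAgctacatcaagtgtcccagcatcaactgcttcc
C5ar1: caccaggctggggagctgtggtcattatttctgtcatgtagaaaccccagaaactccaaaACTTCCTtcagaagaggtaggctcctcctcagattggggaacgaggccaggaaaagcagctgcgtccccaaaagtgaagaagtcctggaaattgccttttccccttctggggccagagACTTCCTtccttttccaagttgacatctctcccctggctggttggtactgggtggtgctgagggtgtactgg

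The motifs were those of NF-κB, IRF and FXR (an inverted repeat), which are given by name, and of AP-1 (TGANTCA), PU.1 and its relatives (AGGAAGT), C/EBP (TTGCNNAA), NRF2 (TGACNNNGC) and HIF (ACGTG). The capitals in Ccrl2 are a HIF match (CACGT) that begins 82 bases before the start and an NRF2 match (GCGGGGTCA) that begins 42 bases before it. Among 32851 promoter windows of the same length, 16.6% held the HIF letters and 10.2% the NRF2 letters. The 2 stretches of capitals in C5ar1 (ACTTCCT) match the PU.1 letters, which 7.69% of windows held. The window of Ccr3, which is not printed, held a match to NF-κB, AP-1 and NRF2 each (letters held by 0.356%, 6.75% and 10.2% of windows). The windows of Ccr1, Ccr2, Cx3cr1, Cxcr4, Fpr1 and Fpr2 held no match. That of Ccr2 lies mostly, and that of Cx3cr1 wholly, inside the annotated span of its gene. All matches are of letters only, and binding was not measured.

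Ccrl2 encodes an atypical receptor that holds the chemoattractant chemerin at the cell surface. It lies on chromosome 9 from 111054486 to 111057519 (GENCODE M21 on GRCm38, protein-coding, minus strand). The LPS libraries had 4.08, 5.12, 4.12 and 4.27 TPM and the LPS + UDCA libraries 19.85, 20.91, 20.70 and 21.04 TPM. Every library with UDCA was above every library without it, and the spread within each group was small beside the gap. The log2 fold change was 2.01 ± 0.073 (SE, limma adjusted p = 3.34e-08, exact permutation test 2-sided p = 0.0286, the smallest that 4 against 4 libraries allow). Of the genes tested, 0.763% had a higher log2 fold change.

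Ccr2 binds CCL2, CCL7 and CCL12, and its gene lies on chromosome 9 from 124101950 to 124113557 on the plus strand. It had 1.32, 1.08, 0.98 and 1.5 TPM in the LPS libraries and 5.56, 5.86, 6.14 and 7.64 TPM in the LPS + UDCA libraries. The groups were apart, and LPS + UDCA replicate 4 was the highest. The log2 fold change was 1.72 ± 0.12 (SE, limma adjusted p = 1.79e-06, exact permutation test p = 0.0286), and the ratio of mean TPM was 5.16. Of the 31-base words in the Ccr2 transcripts, 3.41% also occur in another gene.

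Ccr1 binds CCL3, CCL5 and CCL7 and, in the mouse, CCL6 and CCL9. Its gene lies on chromosome 9 from 123962124 to 123968692 on the minus strand. The LPS libraries had 3.41, 4.03, 3.82 and 3.80 TPM, and the LPS + UDCA libraries 0.39, 0.45, 0.35 and 0.31 TPM. The highest library with UDCA was far below the lowest LPS library. The log2 fold change was -1.79 ± 0.11 (SE, limma adjusted p = 5.43e-07, exact permutation test p = 0.0286). Ccr1 was tested with limma only because the LPS libraries lifted its mean over 1 TPM.

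Cx3cr1, the receptor of the membrane-bound chemokine fractalkine, is annotated on chromosome 9 from 119901616 to 120069879 on the minus strand. Its LPS libraries had 4.08, 3.35, 3.27 and 4.70 TPM, and its LPS + UDCA libraries 0.42, 0.33, 0.34 and 0.43 TPM. The groups were again apart, with a wider spread among the LPS libraries than for Ccr1. The log2 fold change was -1.80 ± 0.13 (SE, limma adjusted p = 1.73e-06, exact permutation test p = 0.0286). As with Ccr1, the mean of Cx3cr1 passed 1 TPM only through the LPS libraries. The annotated span covers other genes on both strands, among them Csrnp1 and Gorasp1 on its own strand, and the sources used here do not say whether reads were counted by strand.

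Adding 1 TPM before the log made these changes smaller than those of TPM itself. Mean TPM was 10.0-fold higher with LPS alone for Ccr1 and 10.1-fold higher for Cx3cr1. With a pseudocount of 0.01 the log2 fold changes were -3.30 for both, 2.37 for Ccr2 and 2.23 for Ccrl2.

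C5ar1 encodes the receptor of the complement fragment C5a and lies on chromosome 7 from 16246743 to 16259540 on the minus strand. It had 49.12, 40.20, 47.43 and 42.91 TPM with LPS and 48.21, 44.97, 51.41 and 42.52 TPM with LPS + UDCA. The groups overlapped. The log2 fold change of 0.058 had a 95% confidence interval of -0.12 to 0.24, or a fold between 0.920 and 1.18 (adjusted p = 0.523 from limma, exact permutation test p = 0.571). The median over all genes tested was 0.082 on the same scale, and with median-of-ratios scaling the value of C5ar1 was -0.019.

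**Figure D2:**
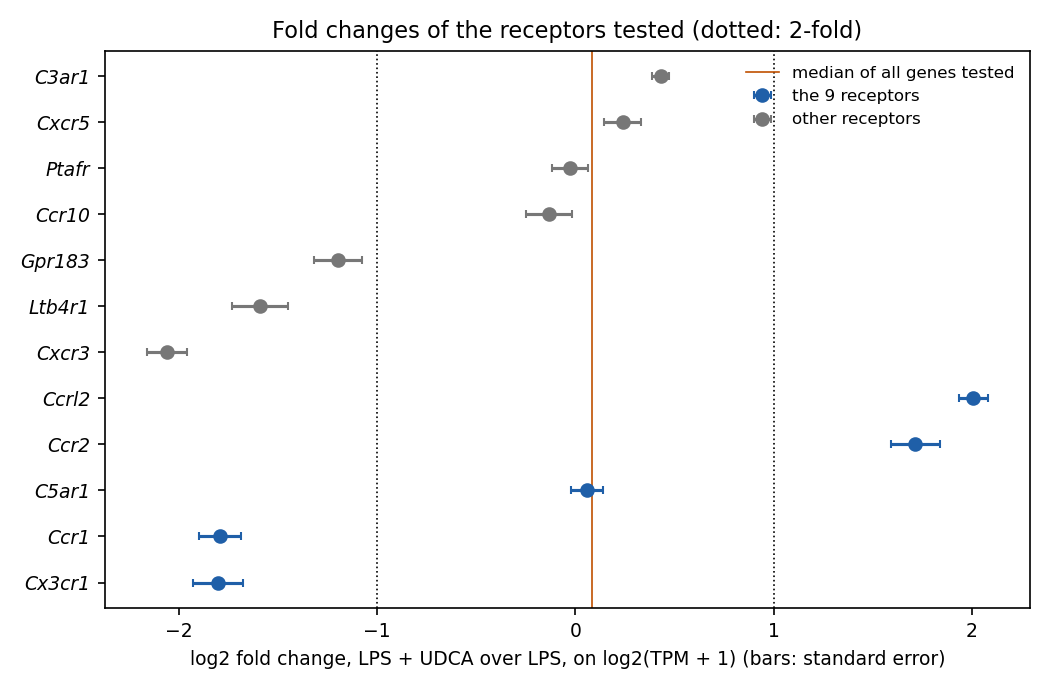
Log2 fold change (LPS + UDCA over LPS, on log2(TPM + 1), horizontal axis) of the 5 receptors tested, in blue, and of 7 related receptors, in grey, with bars for the standard error. The dotted lines mark a 2-fold change and the orange line the median of all genes tested, 0.082. Ccrl2 and Ccr2 lie above 1, whereas Cx3cr1, Ccr1, Cxcr3, Ltb4r1 and Gpr183 lie below -1.

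The other 4 receptors were too low to be tested with the rest. Cxcr4, the receptor of CXCL12, which keeps leukocytes in the bone marrow, lies on chromosome 1 from 128588199 to 128592293. It had 0.13, 0.07, 0.14 and 0.15 TPM with LPS and 0, 0.08, 0 and 0.10 TPM with LPS + UDCA. Its groups overlapped (exact permutation test p = 0.0857). Fpr2, a formyl peptide receptor that also binds serum amyloid A and annexin A1, lies on chromosome 17 from 17887824 to 17893952. It had 0.49, 0.06, 0.09 and 0.19 TPM with LPS, and with LPS + UDCA it was listed at 0.07 TPM in replicate 2 and at 0 in the others. The groups overlapped by a single library (exact permutation test p = 0.0571). The values of Fpr2 are uncertain, because 43.0% of its 31-base words occur in another gene, mostly Gm5966.

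Fpr1, on chromosome 17 from 17876471 to 17883940, had 0.10 TPM in LPS replicate 1, and its other 7 libraries were at 0. Ccr3, the eotaxin receptor of eosinophils, lies between Ccr1 and Ccr2 on chromosome 9 from 124021972 to 124031689. It was listed at no more than 0.02 TPM in any library, with a mean of 0.010 TPM in each group. When all genes above 0 TPM were fitted, the adjusted p from limma was 0.0842 for Cxcr4, 0.11 for Fpr2, 0.46 for Fpr1 and 1 for Ccr3. TPM keeps no read depth, so no limit of detection can be given for these receptors.

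The order of the levels in TPM differed between the groups. With LPS the order was C5ar1, Ccrl2, Cx3cr1, Ccr1 and Ccr2, and neighbours overlapped from Ccrl2 to Ccr1. With LPS + UDCA it was C5ar1, Ccrl2, Ccr2, Cx3cr1 and Ccr1, and of these neighbours Cx3cr1 and Ccr1 overlapped. Below these 5, neighbouring receptors overlapped in both groups. The TPM of Ccr2 was between 0.257 and 0.395 times that of Ccr1 in the LPS libraries, and between 13.0 and 24.7 times in the LPS + UDCA libraries.

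The 9 receptors summed to 58.5 ± 3.73 TPM (SD, n = 4) with LPS and to 74.5 ± 3.11 TPM with LPS + UDCA. C5ar1 made up 76.7% ± 2.45 of this sum with LPS and 62.7% ± 2.86 with UDCA, and Ccrl2 7.58% ± 1.33 and 27.7% ± 1.49. Ccr2 had a share of 2.09% ± 0.400 with LPS and 8.48% ± 1.44 with UDCA. The share of Ccr1 was 6.47% ± 0.838 with LPS and 0.504% ± 0.0871 with UDCA, and that of Cx3cr1 was 6.59% ± 1.14 and 0.511% ± 0.0814.

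**Figure D3:**
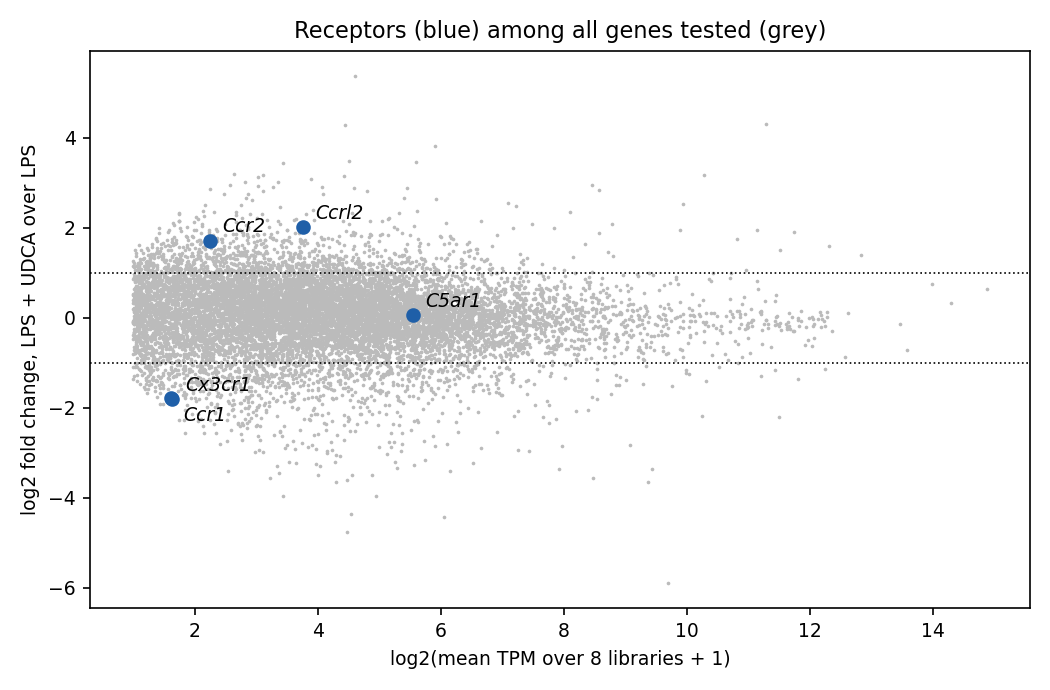
Log2 fold change (LPS + UDCA over LPS, vertical axis) against log2 of the mean TPM plus 1 (horizontal axis) for the 11796 genes tested, in grey, with the 5 receptors tested in blue. The dotted lines mark a 2-fold change. Cx3cr1 and Ccr1 nearly coincide at -1.80 and -1.79, Ccr2 and Ccrl2 lie at 1.72 and 2.01, and C5ar1 at 0.058.

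Of the 9 receptors, 5 lie on chromosome 9, where Ccr1, Ccr3 and Ccr2 belong to a cluster of receptor genes. The start of Ccr1 is at -133.3 kb from that of Ccr2, with Ccr1l1 and Ccr3 between them. Within 500 kb of Ccr2, 31 annotated genes had a row and 9 were tested, of which 3 (Ccr2 included) were called higher and 1, Ccr1, lower, where 8.71% and 8.44% of all genes tested were called. Besides Ccr2, the genes called higher were Lztfl1 and 2010315B03Rik. Lztfl1, a regulator of protein transport in cilia, had 2.22 ± 0.792 TPM with LPS and 8.71 ± 3.40 TPM with UDCA (SD, n = 4; log2 fold change 1.56, adjusted p = 0.000954 from limma). 2010315B03Rik had 1.20 ± 0.626 and 6.35 ± 1.13 TPM (log2 fold change 1.78).

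Fyco1, which encodes an adaptor for the transport of autophagosomes, had a log2 fold change of 0.86 and Gm39469 of 0.81. Both passed the FDR but fell short of the 2-fold rule on log2(TPM + 1). Mean TPM went from 3.80 with LPS to 7.725 with UDCA for Fyco1 and from 2.385 to 4.87 for Gm39469. Gm10052 and Ppp2r3d did not pass the FDR (log2 fold changes -0.28 and -0.10). The receptor genes Ccr9, Cxcr6, Xcr1 and Ccr1l1 in the window had means of 0.2 TPM or less in both groups.

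**Figure D4:**
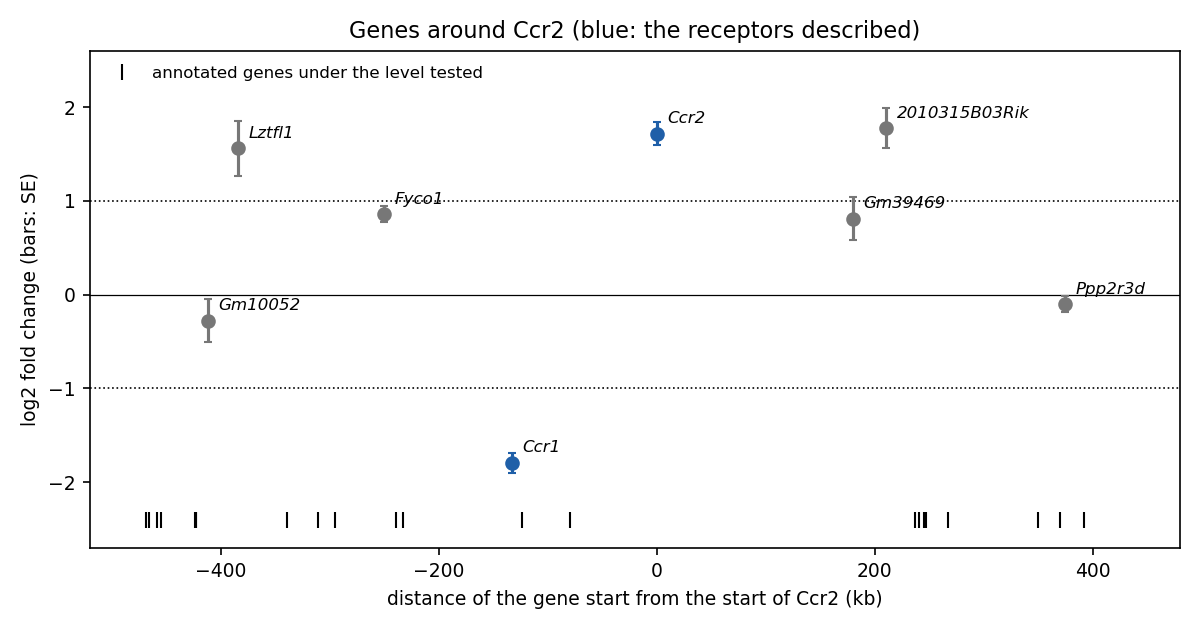
Log2 fold change with standard error (vertical axis) of 8 genes tested within 500 kb of Ccr2, by the distance of their start from the start of Ccr2 in kb (horizontal axis), with Ccr1 and Ccr2 in blue. The ticks at the bottom are annotated genes under the level tested. Ccr1, at -133.3 kb, lies below -1, and Lztfl1, Ccr2 and 2010315B03Rik lie above 1.

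A list of 33 other chemoattractant receptors was compiled by symbol, also with earlier results of these data known. Of these, 8 were tested and 11 were listed at 0 in all libraries. By the 2-fold rule limma called 3 lower and 0 higher (median log2 fold change -0.080 over the 8, against 0.082 over all genes tested). By FDR alone, 2 were higher and 3 lower, where 40.2% of all genes tested were higher and 32.3% lower. The receptors called lower were below the mean TPM set for naming, and they are named after their values were seen. Cxcr3, the receptor of the interferon-induced chemokines CXCL9 and CXCL10, fell from 4.78 ± 0.0966 to 0.388 ± 0.0995 TPM (SD, n = 4; log2 fold change -2.06 ± 0.10 SE, limma adjusted p = 1.85e-07). Ltb4r1, a receptor of leukotriene B4, fell from 2.55 ± 0.391 to 0.178 ± 0.121 TPM, and Gpr183, an oxysterol receptor, from 4.21 ± 0.354 to 1.28 ± 0.286 TPM. Cxcr3 and Ltb4r1 also reached the level tested through the LPS libraries. C3ar1, the receptor of the complement fragment C3a, was the highest of the list and rose by less than 2-fold, from 54.8 ± 2.59 to 74.1 ± 1.498 TPM (SD, n = 4; log2 fold change 0.43, adjusted p = 1.61e-05 from limma). Whether C3ar1 and C5ar1 differed in their change was not tested.

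Of 20 genes listed as ligands of the 9 receptors, 11 were tested. The list includes Ccl4 and Ccl8, which are described below as relatives of such ligands. By the 2-fold rule limma called 6 lower, Ccl4 among them, and 0 higher (median log2 fold change -1.17), where 8.44% of all genes tested were lower and 8.71% higher. By FDR alone, 9 were lower and 2 higher, against 32.3% and 40.2% of all genes. The 3 ligands of Ccr2 that were tested were lower, while their receptor was higher, and Ccl12 was tested only because the LPS libraries lifted its mean over 1 TPM. Ccl2 had 1229 ± 27.7 TPM with LPS and 97.1 ± 3.10 TPM with UDCA (SD, n = 4; log2 fold change -3.65). Ccl7 had 125 ± 10.6 and 4.89 ± 0.602 TPM (-4.43). Ccl12 had 2.27 ± 0.733 and 0.803 ± 0.546 TPM (-0.88 on log2(TPM + 1), past the FDR only). Ccl8, a relative of Ccl2 under the level tested, had 1.29, 0.90, 1.48 and 1.19 TPM in the LPS libraries and was listed at 0 in each library with UDCA.

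Of the ligands of Ccr1, Ccl7 (shared with Ccr2), Ccl9 and Ccl6 were called lower (log2 fold changes -4.43, -1.17 and -1.44). Ccl6 reached the level tested only through the LPS libraries (2.98 ± 0.342 TPM against 0.505 ± 0.418 TPM with UDCA, SD, n = 4). With 1 TPM required in every library 5 ligands were called lower, as were 788 of all genes. The numbers of ligands and genes kept by this filter are not given here, so these counts cannot be compared as shares. Ccl3 was lower by less than 2-fold (-0.71). Ccl5 was higher by less than 2-fold, from 338 ± 15.0 to 656 ± 17.3 TPM (SD, n = 4; log2 fold change 0.95, adjusted p = 5.21e-08 from limma). Mif, a cytokine that also binds Cxcr4, was lower by less than 2-fold (-0.65). Of its 31-base words, 39.1% occur in another gene, mostly Gm10169. Ccl4, a CC chemokine closely related to Ccl3, fell by 1.37 on the log2 scale. The ligands of Fpr2 moved apart, since Saa3, a serum amyloid A made by macrophages, fell by 1.29 on the log2 scale and Anxa1 was higher by 0.56. Cxcl12, the main ligand of Cxcr4, and the eotaxin Ccl11 were listed at 0 TPM in all 8 libraries. Cx3cl1 (fractalkine), Hc (complement C5) and Rarres2 (chemerin) reached no more than 0.37 TPM in any library.

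**Figure D5:**
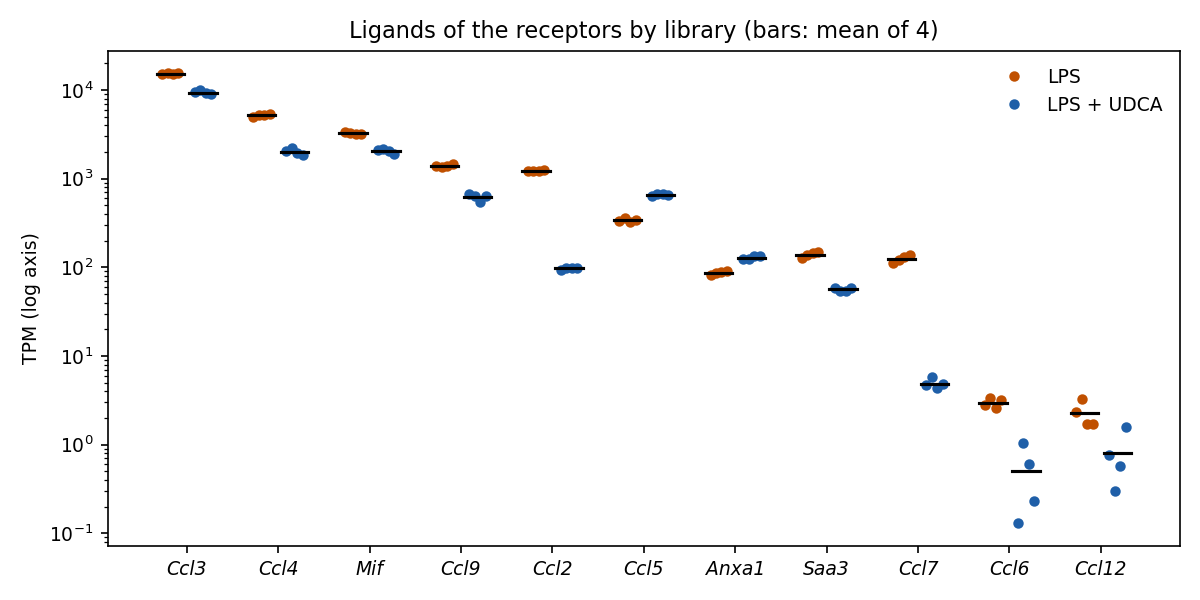
TPM of the 11 ligands tested (vertical log axis), with a point for each library and a bar at the mean of 4, in orange for LPS and blue for LPS + UDCA. Ccl5 and Anxa1 are higher with UDCA and the other 9 ligands lower, with log2 fold changes of -3.65 for Ccl2 and -4.43 for Ccl7.

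Downstream of the receptors, 25 of 27 genes of G proteins and their effectors were tested, and limma called 5 lower and 0 higher by the 2-fold rule (median log2 fold change -0.43), beside 8.44% and 8.71% of all genes tested. By FDR alone, 15 were lower and 7 higher, beside 32.3% and 40.2%. The inhibitory subunit Gnai2 had 276 ± 7.97 TPM with LPS and 205 ± 11.7 TPM with UDCA (SD, n = 4; log2 fold change -0.43). The genes called lower were Itpr1, a calcium channel of the endoplasmic reticulum (-1.39), the G protein subunits Gng2 (-1.17) and Gna15 (-1.07), the phosphoinositide 3-kinase Pik3cg (-1.15) and, named after its value was seen, the phospholipase Plcb2 (-1.05). Among the members of at least 50 TPM, Gnb2 (-0.44), Vav1 (-0.61) and Rac2 (-0.84) were lower and Gng5 (0.67), Pik3r5 (0.45), Cdc42 (0.42) and Rhoa (0.23) higher, all past the FDR only. Gnb1 (0.084) and Rac1 (-0.11) did not pass the FDR.

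Receptor signals are ended by kinases, arrestins and RGS proteins, which speed up the inactivation of G proteins. Of 16 such genes with a row, 12 were tested, and limma called 5 lower and 0 higher by the 2-fold rule (median log2 fold change -0.47), beside 8.44% and 8.71% of all genes tested. By FDR alone, 8 were lower and 0 higher, beside 32.3% and 40.2%. Rgs16 fell from 12.0 ± 0.595 to 1.93 ± 0.387 TPM (SD, n = 4; log2 fold change -2.16, adjusted p = 1.55e-07 from limma), and Rgs14, Rgs3 and Rgs1 had log2 fold changes of -1.57, -1.24 and -1.21. Arrb2, which encodes an arrestin that uncouples and internalises chemokine receptors, fell from 142 ± 5.68 to 65.1 ± 7.002 TPM. Grk2, a kinase that marks receptors for arrestin, had a log2 fold change of -0.17 (past the FDR only), and Rgs19 did not pass it (0.033).

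By the similarity of log2(TPM + 1) over the 8 libraries, the genes most like Ccrl2 were Ccl5, Cd40 and Slc3a2 (Pearson's r 0.999 for each), and those most like Cx3cr1 were Ppp5c, Mtap and Fig4 (0.998, 0.998 and 0.997). These values are a description, because the libraries share the difference between the groups, and 2018 genes reached 0.95 with Ccrl2 and 1883 with Cx3cr1.

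The macrophage label was checked with 11 markers, of which 10 were tested and Mertk was listed at 0 in all libraries. Of the 10 tested, 4 were called lower (Itgam -2.91, Lyz2 -2.19, Cd68 -1.39 and Csf1r -1.35 as log2 fold changes) and 2 higher (Fcgr1 1.48 and Adgre1 1.27). Among all genes tested, 8.44% were called lower and 8.71% higher. The summed level of the list was between 3106 and 3265 TPM with LPS and between 1224 and 1346 TPM with UDCA. The part of these shifts in the receptor results was not tested. The cells are 1 line, and in bulk RNA fewer cells that express a gene and less of its RNA per cell cannot be told apart. The 10 neutrophil markers summed to between 18.81 and 25.63 TPM with LPS and between 3.08 and 9.33 TPM with UDCA. Most of this was S100a8 (19.2 ± 1.60 and 4.52 ± 3.04 TPM, SD, n = 4), which macrophages also express, while Ly6g, Elane, Camp, Retnlg and Mmp8 were listed at 0 in all libraries. The highest value of any marker in any library was 0.19 TPM among 6 eosinophil and mast cell markers, 0.47 among 6 lymphocyte markers, 1.08 among 4 dendritic cell markers and 0.09 among 4 fibroblast markers.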

How the data were processed

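The authors deposited a table of gene-level TPM values, scaled by gene length and library, for 8 libraries, sequenced on an Illumina HiSeq instrument. The submitters' processing notes name Bowtie 0.12.2 and the mm10/GRCm38 build without giving their roles. The counting program and annotation are not given in the sources used here. TPM keeps no read depth, so the depth and its precision are unknown. The sum over all genes was 973190 to 977485 TPM per LPS library and 958918 to 962737 TPM per LPS + UDCA library. Groups were taken from the labels, which name no batch, and no pair of the 28 pairs of libraries was identical.

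From these values, genes whose mean reached 1 TPM were fitted with limma 3.58.1 in R 4.3.3 (lmFit and eBayes with trend) on log2(TPM + 1), with Benjamini-Hochberg adjustment over all 11796 genes tested. Single receptors were also compared with an exact 2-sided permutation test over 70 arrangements of the libraries. The fit was tested on simulated data. Positions, and words of 31 bases shared between genes, came from GENCODE M21, in which 55141 of the 55487 identifiers were found, and promoters came from RefSeq.

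The members and gene lists were chosen with earlier results of these data known. All 9 receptors were named. Of each other list, the genes called that averaged 5 TPM or more (up to 4 in each direction by size of change) and those averaging 50 TPM or more were named, together with ligands beside their receptor, genes within 500 kb of Ccr2 and the 3 genes most correlated with the receptors of the highest and lowest log2 fold change. A gene that is counted in these lists is not reported here by name. Adrbk1 and Adrbk2, older symbols, had no row. Other scalings, pseudocounts, filters, thresholds and variance settings, a replicate block and the removal of each library were tried.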

Additional observations from a re-analysis of the deposited data

Results flagged for a closer look

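In each group of 4 libraries, the highest and the lowest value were compared with the rest by Dixon's ratio (the gap to the nearest library over the range of the group, against its 95% critical value), and 7 values stood apart among 93 groups examined, where chance gives about 1 in 20. Among the receptors these were Fpr1 at 0.1 TPM in LPS replicate 1 and Fpr2 at 0.07 TPM in LPS + UDCA replicate 2, with the other libraries of each group at 0. With the others at 0, Dixon's ratio is 1 for any value above 0. The flags of Fpr1 and Fpr2 were therefore fixed in advance, and the rate of 1 in 20 does not cover them. Ccl2 was highest in LPS replicate 4, at 1270.01 TPM with the next library at 1217.53, and lowest in LPS + UDCA replicate 1, at 92.51 TPM with the next at 98.28. Fcgr1 was highest in LPS + UDCA replicate 2 (120.85 TPM, next 104.1). Lyz2 was lowest in LPS replicate 1 (1848.05 TPM, next 2025.69). Rac2 was lowest in LPS + UDCA replicate 3 (146.3 TPM, next 233.7).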

How the results depend on the processing

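Of 320 alternative values for 17 results, 303 kept their direction and side of the threshold or, for counts, stayed within 1.5 times. The log2 fold changes of Ccr1, Ccr2, Ccrl2 and Cx3cr1 kept both under each alternative that gave a value, and lay between -3.30 and -1.79, 1.60 and 2.37, 1.93 and 2.23, and -3.30 and -1.80 outside the removal of libraries. Other filters, variance settings, thresholds and the replicate block left each log2 fold change as it was. Its direction could not change there, and a lower fold change minimum cannot undo a call. C5ar1 was -0.019 with median-of-ratios scaling (adjusted p = 0.843 from limma), where the median of all genes was 0.0087 in place of 0.082. With at least 1 TPM required in every library, 763 genes were called higher and 788 lower, of a number tested that is not given here. Ccrl2 and C5ar1 alone of the receptors remained under this filter, so 1 receptor was called higher and 0 lower. Of the other receptors, 0 were lower, and Cxcr3, Ltb4r1 and Gpr183 did not reach 1 TPM in every library. Without a fold change minimum, 4741 genes were higher and 3807 lower, with 2 other receptors, 2 ligands and 7 signalling genes higher and 15 signalling and 8 desensitisation genes lower. At a fold change of at least 1.5, 2574 genes were higher and 2076 lower, with 1 ligand and 1 signalling gene higher and 8 signalling genes lower. Quantile normalization called 1 ligand higher. Leaving out each library in turn gave 971 to 1130 genes higher and 964 to 1031 lower, with 2 receptors higher and 2 lower each time. It gave 3 other receptors, 6 to 7 ligands, 4 to 5 signalling genes and 5 desensitisation genes lower, with 0 higher in each of these lists. The log2 fold changes ranged from -1.83 to -1.77 for Ccr1, 1.63 to 1.77 for Ccr2, 1.98 to 2.07 for Ccrl2, -1.86 to -1.72 for Cx3cr1 and 0.0075 to 0.10 for C5ar1.

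With the replicate number as a block, 1034 genes were higher and 1000 lower, 2020 genes were called with and without it, and the calls of the 4 receptors remained. The deviations of same-numbered libraries correlated between -0.035 and 0.15 and those of differently numbered ones between -0.145 and 0.162, and 5 of 8 libraries correlated best with their own number, a hint from the data. The labels do not say what the number means and not every pair was over 0.1, so the libraries were not treated as paired.

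For the low receptors, TPM with no depth gives no count of reads behind a value.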
